A study of Mus musculus with 2 samples.

Results

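Neutrophils of dystrophic hind limb muscle were examined in single cell RNA-seq data from mdx mice. They made up 133 of 8010 deposited cells, 101 in the Ctrl library and 32 in the dKO library. Members were chosen by their own UMIs (unique molecular identifiers, each standing for 1 captured RNA molecule). A cell was selected on at least 20 UMIs of S100a8 and S100a9 together and detection of at least 2 of Retnlg, Cxcr2, Csf3r, Mmp9 and Ly6g. It also had 0 UMIs of Pdgfra, Cdh5, Cd3e and Cd79a and fewer than 5 UMIs of C1qa, C1qb and C1qc. The levels of these genes are therefore given as a description of the members.

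Both groups carried the mdx allele, which removes dystrophin, on a Pax7CreERT2/R26YFP background, and both received tamoxifen 1 month before the muscle was taken. Ctrl mice were Yy1+/+ and dKO mice Yy1f/f, so that YY1, a zinc finger transcription factor, was lost from muscle stem cells (MuSCs) of the dKO. The Cre was driven by Pax7, a MuSC gene, and neutrophils were not its target. Each group was 1 library made from pooled mice after lysis of red blood cells and sorting of live cells, so differences between the groups have no replicates behind them and are given without a test. All intervals are 95% intervals and cover counting error only. The libraries held 45556596 UMIs in Ctrl and 33815155 in dKO, with medians of 7697 and 7615 per cell, and shared 7 cell barcodes, of which 1 marked a Ctrl neutrophil. In cells with a Pax7 UMI, Yy1 stood at 187 CPM (UMIs per 1000000 UMIs; 167 to 208, 83 cells) in Ctrl and 23.9 CPM (11.9 to 42.8, 20 cells) in dKO. Ctrl neutrophils had Yy1 at 157 CPM (123 to 197) and dKO neutrophils at 133 CPM (74.5 to 220.0), with intervals that overlapped.

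Neutrophils are short-lived phagocytes that are made in the bone marrow, circulate in blood and enter injured tissue along gradients of chemokines and complement fragments. They fill their granules in order as they mature: primary granules with serine proteases, secondary granules with lactoferrin and antimicrobial peptides, and gelatinase granules with matrix metalloproteinases. Transcription of each granule set stops as the cell moves on, so the granule transcripts that remain reflect maturity. In dystrophic muscle, where fibres break down and regenerate continuously, neutrophils are among the immune cells recruited to damaged fibres.

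The deposited members were split into a range with at least 10 UMIs of the secondary granule genes Camp, Ngp and Ltf and a range with fewer. The promoters of example genes higher in one range or the other are shown for that reason. The windows run from 250 bases before to 50 bases after the annotated start, are RefSeq sequences of GRCm38.p6, and are written 5′ to 3′ on the strand of the gene. Capitals mark matches on either strand to TTGCNNAA, a form of the C/EBP core, in Ngp and Ltf, and to GGGNNTTTCC, a form of the NF-kB site, in Cxcl2 and Nfkbia.
Ngp, neutrophilic granule protein, chr9:110419558-110419857, plus strand: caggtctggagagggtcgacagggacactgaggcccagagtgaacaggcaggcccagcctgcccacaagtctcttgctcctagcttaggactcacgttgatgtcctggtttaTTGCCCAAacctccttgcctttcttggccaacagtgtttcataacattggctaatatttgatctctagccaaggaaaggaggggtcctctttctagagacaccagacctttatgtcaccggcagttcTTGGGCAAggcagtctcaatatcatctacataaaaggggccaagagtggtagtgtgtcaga
Ltf, lactoferrin, chr9:111019042-111019341, plus strand: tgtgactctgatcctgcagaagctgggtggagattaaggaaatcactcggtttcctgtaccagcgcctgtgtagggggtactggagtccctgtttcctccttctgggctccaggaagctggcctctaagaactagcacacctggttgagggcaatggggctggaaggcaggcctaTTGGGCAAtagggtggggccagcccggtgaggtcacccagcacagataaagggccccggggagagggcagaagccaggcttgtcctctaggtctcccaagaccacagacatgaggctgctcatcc
Cxcl2, a chemokine of neutrophils, chr5:90903649-90903948, plus strand: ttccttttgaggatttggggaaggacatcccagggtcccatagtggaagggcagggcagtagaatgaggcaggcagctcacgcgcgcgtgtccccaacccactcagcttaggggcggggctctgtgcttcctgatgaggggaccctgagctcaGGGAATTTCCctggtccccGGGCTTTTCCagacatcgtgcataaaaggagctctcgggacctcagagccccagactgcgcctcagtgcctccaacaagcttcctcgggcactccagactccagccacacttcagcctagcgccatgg
Nfkbia, the inhibitor of NF-kB, chr12:55492598-55492897, minus strand: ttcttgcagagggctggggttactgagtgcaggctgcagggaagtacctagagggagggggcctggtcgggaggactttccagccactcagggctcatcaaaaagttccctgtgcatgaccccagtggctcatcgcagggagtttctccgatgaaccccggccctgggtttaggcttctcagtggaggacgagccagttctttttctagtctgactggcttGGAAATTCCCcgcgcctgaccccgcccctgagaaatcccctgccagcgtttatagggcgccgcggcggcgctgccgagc

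TTGCNNAA was found in 3 of 8 secondary granule genes with a window (Lcn2, Ltf and Ngp), in 0 of 12 cytokine and chemokine genes and in 10.8% of all 32851 windows. GGGNNTTTCC was found in 4 of 12 cytokine and chemokine genes (Csf1, Cxcl2, Cxcl3 and Il1rn), in 3 of 8 NF-kB feedback genes (Nfkb2, Nfkbia and Tnfaip3), in 1 secondary granule gene (Pglyrp1) and in 1.63% of all windows. Of 7 spellings searched, these were chosen for print after the matches had been seen. A match describes the letters of a window and is not evidence of binding.

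The defining transcripts were abundant. S100a8 and S100a9, which encode the calprotectin subunits, gave between 22 and 6305 UMIs per member in Ctrl, with a median of 497. In dKO they gave between 40 and 4884, with a median of 132. The members just inside the limit had 22, 23 and 25 UMIs in Ctrl and 40, 43 and 44 in dKO, and the cells just outside it that passed every other condition had 14, 6 and 3 in Ctrl and 11, 10 and 7 in dKO. S100a9 alone made up 10.98% of all UMIs of Ctrl neutrophils and 7.74% of those of dKO neutrophils. The 6 neutrophil markers were all detected in both libraries. Ly6g, the antigen most used to sort mouse neutrophils, was detected in 43 of 101 Ctrl and 9 of 32 dKO members, so many members were not detected with it at this depth.

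Neutrophils were shallow cells. They held a median of 2860 UMIs (607 to 19062) and 935 genes in Ctrl and 2049 UMIs (897 to 24183) and 669 genes in dKO. Macrophages of the same libraries held medians of 10042 and 8315 UMIs. A single dKO member held 21.5% of all UMIs of dKO neutrophils, whereas the deepest Ctrl member held 4.09%, and the dKO lists compared between granule ranges below are also given without that cell. No doublet caller was run here, and markers of other cells are described with their values instead.

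Markers of eosinophils, NK cells and erythroid cells were at 0 in every member. Macrophage markers summed to 285 CPM in Ctrl, with all 7 of 7 detected, and to 115 CPM in dKO, with 5 of 7 detected and Mrc1 and Ms4a7 at 0. At least 2 markers of a macrophage, FAP, endothelial, smooth muscle, MuSC, T cell or B cell list were present in 44 of 101 Ctrl and 4 of 32 dKO members. From the FAP list, 33 Ctrl and 4 dKO members held at least 2, and from the macrophage list 19 and 0. One Ctrl member held 97.3% of the smooth muscle marker UMIs (462 UMIs), and 1 dKO member held 143 of 145 myofibre marker UMIs. Csf1r, the receptor of monocytes and macrophages, was detected in 17 Ctrl and 5 dKO members. In 8 Ctrl members and 1 dKO member S100a8 and S100a9 were under 2% of the UMIs, and all 9 carried at least 2 markers of another list. The label of neutrophil is least sure for those 9 cells. Monocyte markers, with all 6 of 6 detected, summed to 1092 CPM in Ctrl and 967 CPM in dKO, and 13 Ctrl and 3 dKO members held at least 2 of them.

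To set these levels against free RNA, every cell was reduced at random to 1000 UMIs, for which 4 Ctrl and 2 dKO neutrophils were too shallow. Retnlg, which encodes a resistin-like protein of granulocytes, was then seen in 73.2% of Ctrl neutrophils (63.2 to 81.7) and 56.7% of dKO neutrophils (37.4 to 74.5). In FAPs (fibro-adipogenic progenitors, the stromal cells of muscle), which should lack it, the share was 0.241% in Ctrl and 0 of 831 cells in dKO. Before thinning, the Retnlg shares were 85.2% and 68.8% of neutrophils and 2.41% and 0.843% of FAPs. S100a9 was seen in 100% of thinned neutrophils of both libraries, and in 1.81% of Ctrl and 0.361% of dKO FAPs. Endothelial cells gave S100a9 in 2.90% of Ctrl cells and 0 of 176 dKO cells. Retnlg and S100a9 were used to choose the members, so the shares in FAPs and endothelial cells serve only as the level of free RNA.

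**Figure D1:**
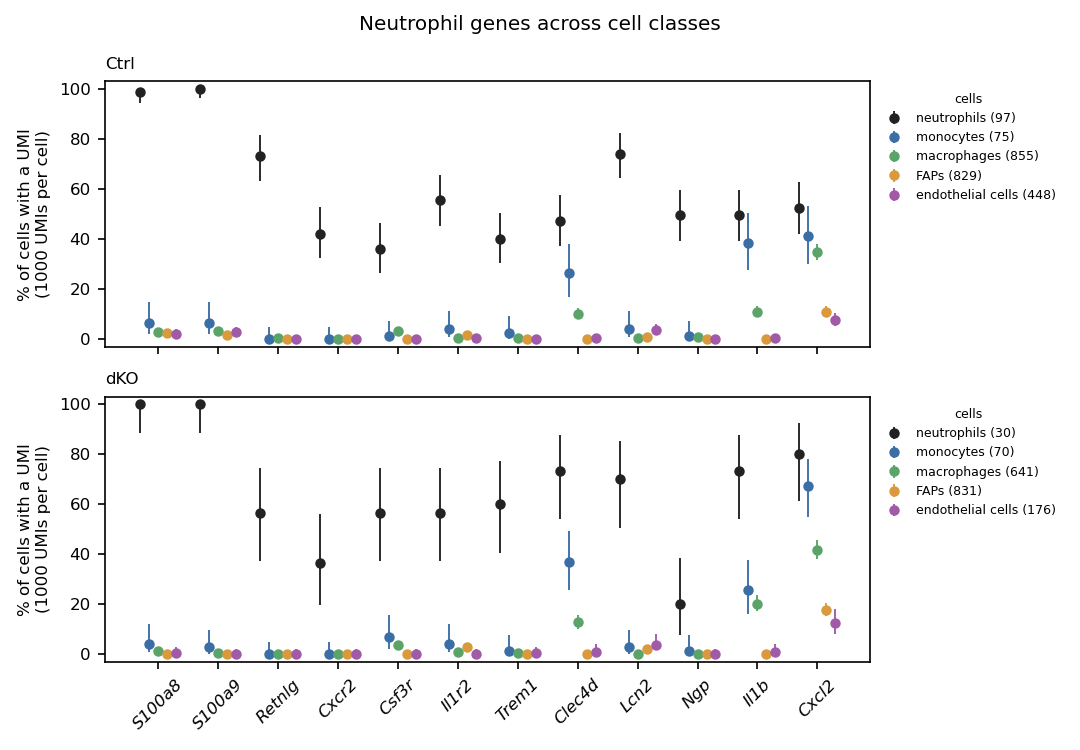
Share of cells with at least 1 UMI of 12 genes (horizontal axis) after thinning each cell to 1000 UMIs, in percent, for 5 cell classes of the Ctrl library (top) and the dKO library (bottom). Points are shares, bars exact binomial 95% intervals, and the legend gives the cells per class. Retnlg and Cxcr2 were near 0 outside neutrophils, while Il1b and Cxcl2 were also seen in monocytes and macrophages.

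These receptor transcripts were seen more often in neutrophils than in monocytes, a class chosen for comparison as alike. Cxcr2, the receptor for the CXC chemokines that draw neutrophils into tissue, was seen in 42.3% of Ctrl and 36.7% of dKO neutrophils at 1000 UMIs. It was at 0 of 75 Ctrl and 0 of 70 dKO monocytes. Csf3r, the receptor for the growth factor G-CSF, was seen in 36.1% and 56.7% of neutrophils and in 1.33% and 7.14% of monocytes. Il1r2, the decoy receptor for interleukin-1, was seen in 55.7% and 56.7% of neutrophils and 4% and 4.29% of monocytes. Trem1, an amplifier of inflammatory signalling, was seen in 40.2% and 60.0% of neutrophils and 2.67% and 1.43% of monocytes. Clec4d, a C-type lectin that recognises fungal and mycobacterial lipids, was shared more widely, at 47.4% and 73.3% of neutrophils and 26.7% and 37.1% of monocytes. Cxcr2 and Csf3r were among the genes that selected the members, whereas Il1r2, Trem1 and Clec4d were not.

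Neutrophils were few, yet they held most Ngp and Lcn2 transcripts in both libraries. Of all Retnlg UMIs in a library, 88.7% in Ctrl and 93.6% in dKO lay in the neutrophils described here, which were chosen in part by Retnlg. For Ngp, these shares were 70.1% and 72.3%. For Lcn2, which encodes the iron-binding protein lipocalin-2, they were 70.2% in Ctrl and 55.1% in dKO, and FAPs held 2.24% and 13.9%. For Cxcl2, they were only 2.60% and 1.83%, since macrophages held 35.7% and 31.1%. For Tnf, they were 2.60% and 3.64%, against 45.4% and 41.1% in macrophages.

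Neutrophils were less frequent in dKO muscle. In Ctrl the 101 neutrophils were 2.23% of the library (1.82 to 2.70), and in dKO the 32 neutrophils were 0.919% (0.629 to 1.29). The share was thus -1.31 percentage points apart (-1.86 to -0.770, dKO minus Ctrl). Among cells with a UMI of Ptprc, the pan-leukocyte antigen CD45, neutrophils were 4.70% of the Ctrl and 2.13% of the dKO cells, -2.58 points apart (-3.80 to -1.33). Members with at least 2 markers of a macrophage, FAP, endothelial, smooth muscle, MuSC, T cell or B cell list were then left out. This left 57 Ctrl and 28 dKO neutrophils and a difference of -0.455 points (-0.899 to 0.00105), whose interval included 0. The monocyte list was not used for this step. Below, other-lineage markers are those of the lists used. The monocyte shares were 1.66% (1.31 to 2.07) and 2.04% (1.60 to 2.56), and their intervals overlapped. A share of sorted, dissociated cells in 1 library per group cannot be told apart from differences in recovery between the suspensions.

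Transcripts of 3 secondary granule genes split the neutrophils of both libraries. Camp (cathelicidin), Ngp and Ltf together gave 0 UMIs in 51 of 60 Ctrl and 26 of 26 dKO cells below a limit of 10 UMIs. At or above that limit, Ctrl cells had a median of 363 UMIs of the 3 genes (11 to 2543) and dKO cells a median of 566 (14 to 3082). The limit cuts a continuous score, and 8 Ctrl cells and 1 dKO cell lay near it, between 5 and 19 UMIs. Cells on either side are called granule-rich and granule-poor below, as ranges and not as cell types. Granule-poor cells were not without secondary granule transcripts, since the whole list stood at 4871 CPM in Ctrl and 3787 CPM in dKO ones. Granule-rich cells were deeper, with medians of 5741 UMIs in Ctrl and 5849 in dKO, against 1731 and 1663.5 in granule-poor cells.

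**Figure D2:**
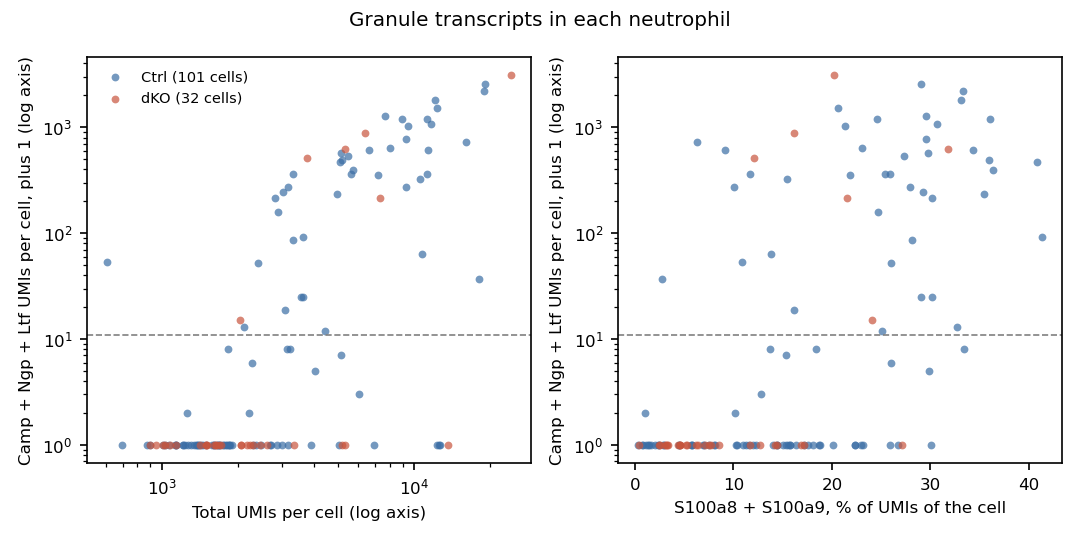
Camp, Ngp and Ltf UMIs per neutrophil plus 1 (vertical, log axis) against the total UMIs of the cell (left, log axis) and the share of its UMIs from S100a8 and S100a9 in percent (right). Each point is 1 cell, and the dashed line is the limit of 10 UMIs. The dKO library has 6 cells above the line and 26 cells at 0, and the deepest dKO cell lies at the top right of the left panel.

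The granule-rich share was lower in dKO. It was 41 of 101 neutrophils in Ctrl, or 40.6% (30.9 to 50.8), and 6 of 32 in dKO, or 18.8% (7.21 to 36.4). The difference was -21.8 points (-35.7 to -2.97). With at least 3 of the 5 further genes, at least 500 genes per cell, or no members with other-lineage markers, it was -18.2, -20.8 and -17.2 points and the interval included 0. At 1000 UMIs per cell, Ngp was seen in 49.5% of Ctrl (39.2 to 59.8) and 20% of dKO neutrophils (7.71 to 38.6).

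Granule-rich cells of both libraries carried further transcripts that are known from earlier neutrophil maturation. Chil3, which encodes a chitinase-like protein, stood at 5177 CPM in granule-rich and 38.3 CPM in granule-poor Ctrl cells, and at 7569 and 346 CPM in dKO, where 1 cell gave all UMIs of the granule-poor range. Lcn2 stood at 14127 and 2467 CPM in Ctrl and at 18953 and 2215 CPM in dKO. Cd177, a surface partner of proteinase 3, stood at 1099 and 82.9 CPM in Ctrl and at 1367 and 31.4 CPM in dKO. All 3 belong to the secondary granule list, and 3 of its genes set the ranges.

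Genes outside that list followed the same split. Cebpe, a transcription factor that drives secondary granule genes, was detected in 16 of 41 granule-rich and 0 of 60 granule-poor Ctrl cells, and in 3 of 6 and 1 of 26 dKO cells. Anxa1, a protein that limits leukocyte entry, stood at 1908 against 268 CPM in Ctrl and at 2550 against 236 CPM in dKO. Cybb, the catalytic subunit of the NADPH oxidase, stood at 1872 against 421 CPM in Ctrl and at 2938 against 267 CPM in dKO. The 6 oxidase genes together were lower in granule-poor cells, with log2 ratios to granule-rich cells of -0.98 in Ctrl (-1.13 to -0.83) and -1.40 in dKO (-1.66 to -1.14).

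Cell cycle transcripts were found among granule-rich cells. Mki67, a marker of proliferating cells, had 114 UMIs in 10 of 41 granule-rich Ctrl cells and 29 UMIs in 1 of 6 granule-rich dKO cells, and 0 UMIs in granule-poor cells of both libraries. Top2a, which untangles replicated chromosomes, had 82 UMIs in 8 Ctrl cells and 15 UMIs in 1 dKO cell, and was likewise at 0 in granule-poor cells. At least 3 of 8 cell cycle genes were detected together in 7 Ctrl cells and 1 dKO cell, all granule-rich. These were deep cells, with a median of 12320 UMIs in Ctrl and 24183 UMIs for the dKO cell, and the part of depth in the count was not tested. Without the deepest member, the dKO list stood at 725 CPM in granule-rich and 503 CPM in granule-poor cells, a log2 ratio of -0.53 whose interval included 0 (-1.40 to 0.39).

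Several receptor transcripts were higher in granule-poor cells of both libraries. Clec4d stood at 1747 CPM in granule-poor and 171 CPM in granule-rich Ctrl cells, and at 1838 and 122 CPM in dKO. Csf3r stood at 854 and 142 CPM in Ctrl and at 911 and 122 CPM in dKO. Ptafr, the receptor for platelet-activating factor, stood at 657 and 90.5 CPM in Ctrl and at 801 and 143 CPM in dKO. Cxcr2 stood at 746 and 249 CPM in Ctrl and at 676 and 143 CPM in dKO. Csf3r and Cxcr2 were among the genes that chose the members, whereas Clec4d and Ptafr were not. Ly6g, which the rule also used, took the opposite direction in Ctrl, at 166 CPM in granule-poor and 475 CPM in granule-rich cells. Ly6c2, a gene of the monocyte list, was likewise higher in granule-rich cells, at 1148 against 191 CPM in Ctrl and at 1469 against 204 CPM in dKO, and its part in the ranges was not tested.

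By lists, the log2 ratio of granule-poor to granule-rich cells was 2.85 in Ctrl and 3.50 in dKO for cytokines and chemokines, 2.05 and 1.04 for NF-kB feedback genes, and 1.44 and 2.71 for antiviral genes. It was 1.65 and 1.19 for chemoattractant receptors and 1.56 and 1.45 for Fc and pattern recognition receptors. It was -2.39 and -3.65 for cell cycle genes and -0.88 and -1.45 for enzymes of lipid mediators. Stefins and protease inhibitors took opposite directions, 0.56 in Ctrl and -0.60 in dKO. The dKO values of the granule-rich range rest on 6 cells, of which 1 held 49.3% of the UMIs. Without that cell, the dKO log2 ratios were 4.75 for cytokines and chemokines, 3.01 for NF-kB feedback genes, 2.09 for antiviral genes, 1.12 for chemoattractant receptors, 1.27 for Fc and pattern recognition receptors, -1.92 for enzymes of lipid mediators, -1.13 for the oxidase genes and -0.87 for stefins and protease inhibitors.

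**Figure D3:**
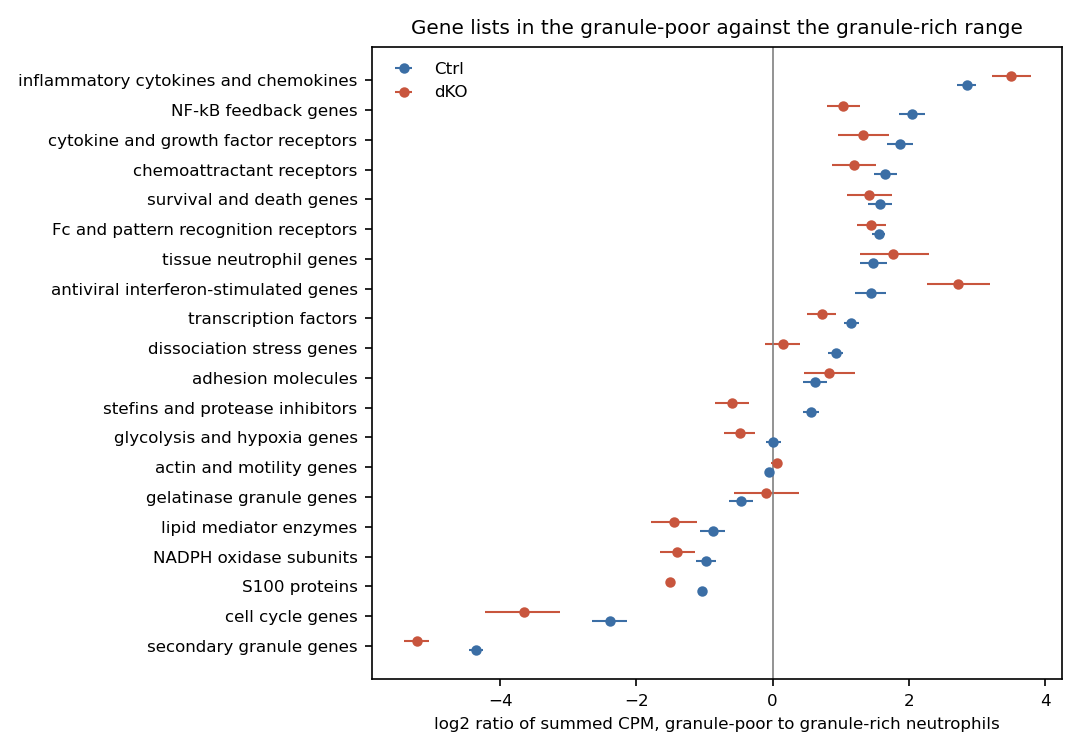
log2 ratio of summed CPM in granule-poor against granule-rich neutrophils (horizontal axis) for 20 gene lists (vertical axis), with Ctrl in blue and dKO in red. Points are ratios and bars 95% counting intervals. Cytokines, receptors and NF-kB feedback genes lie to the right of 0 in both libraries, and cell cycle and oxidase genes to the left.

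Between libraries, 1477 genes had at least 50 UMIs over all neutrophils. Of these, 83 genes (5.62%) were over 2-fold higher in dKO and 77 genes (5.21%) over 2-fold lower, and the median log2 ratio was 0.04. The interval of the ratio lay wholly beyond 2-fold for 22 higher and 24 lower genes. One cell held over 50% of the UMIs for 10 of the 83 genes in dKO and for 16 of the 77 genes in Ctrl. When S100a8 and S100a9 were left out of the totals, every log2 ratio moved by -0.11 and the counts were 62 higher and 96 lower. Among granule-poor cells alone, 655 genes had enough UMIs, and 30 were higher and 56 lower in dKO.

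The 20 most abundant genes stayed within 2-fold. Their log2 ratios ran from -0.79 for Retnlg to 0.55 for Fth1, which encodes ferritin heavy chain and made up 2.25% of Ctrl and 3.30% of dKO neutrophil UMIs. Srgn, whose proteoglycan holds granule proteins, was at 0.441% and 0.642%. Tmsb4x, which sequesters actin, was at 1.86% and 1.78%, and Actb at 1.02% and 0.985%.

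Summed cytokine and chemokine transcripts were higher in dKO than in Ctrl neutrophils. Of 14 genes, 10 had at least 50 UMIs, and 7 of those were over 2-fold higher in dKO and 0 lower, with a median log2 ratio of 1.52. Over all tested genes the shares were 5.62% higher and 5.21% lower, and they apply to each list count below. Single genes past 2-fold in a list are too few to set that list apart from these shares. Summed over the list, the level was 5408 CPM in Ctrl and 15737 CPM in dKO, a log2 ratio of 1.54 (1.45 to 1.63). Within granule-poor cells it was 12623 and 26082 CPM, a log2 ratio of 1.05 (0.95 to 1.14). Without the 9 cells under 2% S100a8 and S100a9 it was 1.85, and it was 0.98 when the exclusion genes were dropped from the rule.

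Ccl3, a chemokine that attracts monocytes and neutrophils, had 125 UMIs in 27 of 101 Ctrl cells and 208 UMIs in 17 of 32 dKO cells. Its level was 268 CPM in Ctrl and 1846 CPM in dKO, or 6.88-fold higher (5.49 to 8.66), and 4.93-fold higher (3.87 to 6.31) among granule-poor cells. Ccl4, its close neighbour on chromosome 11, was 5.36-fold higher (4.20 to 6.84). The annotated spans of Ccl3 (chr11:83647843-83649378) and Ccl4 (chr11:83648624-83664683) overlap, so that some reads of the pair could be split by the counting. Cxcl2, an agonist of CXCR2, had 1063 UMIs in 66 Ctrl cells and 741 UMIs in 28 dKO cells, at 2281 and 6577 CPM, and was 2.88-fold higher (2.62 to 3.17). Il1b, which encodes interleukin-1 beta, stood at 968 and 2823 CPM and was 2.92-fold higher (2.52 to 3.37).

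Tnf, the gene of tumour necrosis factor, was 6.50-fold higher (4.18 to 10.2) and was detected in 15 of 101 Ctrl and 12 of 32 dKO cells. Its UMIs were few, 35 and 55, and the leading cell accounted for 45.7% of the Ctrl and 40% of the dKO UMIs. Among granule-poor cells its ratio was 3.18 (1.81 to 5.67), and its log2 ratio of 2.70 became 2.25 without the deepest members and 4.40 without members with other-lineage markers. Csf1, the growth factor of macrophages, stood at 114 and 302 CPM. Its ratio was 2.65 (1.67 to 4.16). Among granule-poor cells the ratios of Cxcl2, at 1.97 (1.78 to 2.17), and Csf1, at 1.74 (1.06 to 2.81), were under 2-fold, while those of Il1b, at 2.04 (1.74 to 2.38), and Ccl4, at 4.41 (3.37 to 5.81), were above it. Cxcl3, another CXCR2 agonist, had 35 and 24 UMIs and a ratio of 2.84 (1.61 to 4.91), but its log2 ratio became 0.63 without members with other-lineage markers and -0.57 with no exclusion genes. Members of the list that stayed within 2-fold were Ccl6 at 1.84-fold higher (1.51 to 2.22), Il1rn, the interleukin-1 receptor antagonist, at a ratio of 1.33 (0.94 to 1.86), and Osm at a ratio of 0.66 (0.31 to 1.25). The interval of Il1rn and that of Osm included 1.

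Within the granule-poor range the spread over cells differed between the 2 libraries, and cells of 1 library are not replicates. The 14 genes took a median of 1.13% of the UMIs of a Ctrl granule-poor cell (0.0437 to 8.75) and 2.08% of a dKO granule-poor cell (0.467 to 10.2). More than 2% was reached by 16 of 60 Ctrl and 14 of 26 dKO cells, and the ranges overlapped. In granule-rich cells the medians were 0.0806% in Ctrl and 0.0826% in dKO.

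**Figure D4:**
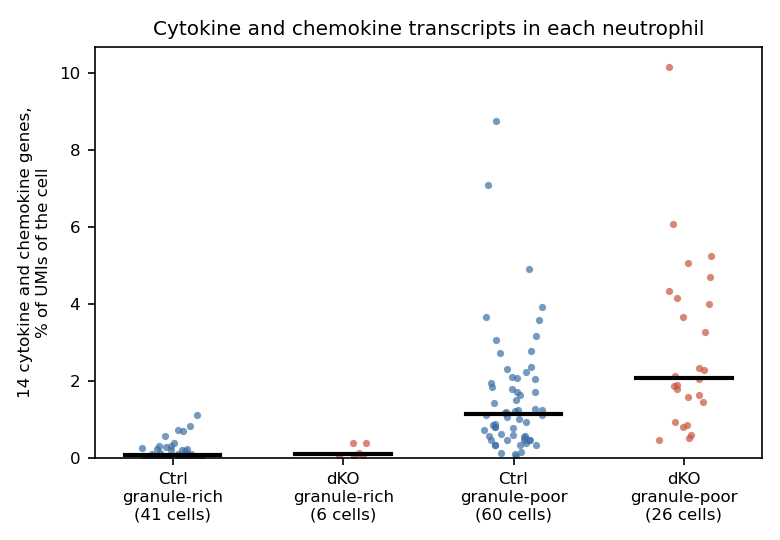
Share of the UMIs of each neutrophil from 14 cytokine and chemokine genes, in percent (vertical axis), by library and granule range (horizontal axis). Each point is 1 cell and black lines are medians. Granule-rich cells stayed at or below 1.10% in both libraries, and granule-poor cells reached 8.75% in Ctrl and 10.2% in dKO.

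NF-kB feedback genes, a list of NF-kB targets of which only some restrain it, were also higher. Of 11 genes, 8 had at least 50 UMIs, 5 of them over 2-fold higher in dKO and 0 lower, with a median log2 ratio of 1.13. Nfkbia stood at 817 CPM in Ctrl and 2858 CPM in dKO, or 3.50-fold higher (3.01 to 4.07), and was 2.11-fold higher (1.76 to 2.53) among granule-poor cells. One dKO cell held 28.9% of its UMIs, and without the deepest member the granule-rich dKO cells had 3 Nfkbia UMIs in place of 96. Nfkbiz, an atypical inhibitor that also activates secondary genes, was 3.51-fold higher (2.62 to 4.70). Tnfaip3, which encodes the deubiquitinase A20, was 6.02-fold higher (3.39 to 10.9) from 22 and 32 UMIs, of which 1 dKO cell held 37.5%, and 2.90-fold higher (1.44 to 5.89) among granule-poor cells. Nlrp3, the inflammasome sensor, was 2.35-fold higher (1.57 to 3.47), with a ratio of 1.52 (1.00 to 2.28) among granule-poor cells. Within granule-poor cells the summed log2 ratio was 0.83 (0.66 to 1.00), against 1.47 (1.33 to 1.61) over all members. Tnfaip2 lost its direction there, with a ratio of 0.974 among granule-poor cells.

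Antiviral interferon-stimulated genes were higher as well. Of 28 genes, only 6 had at least 50 UMIs, and 5 of those were over 2-fold higher in dKO and 0 lower, with a median log2 ratio of 1.38. Rsad2, which encodes the antiviral enzyme viperin, stood at 118 and 435 CPM and was 3.69-fold higher (2.46 to 5.52). Slfn4, a schlafen of myeloid cells, was 2.81-fold higher (2.13 to 3.68), Isg15, a ubiquitin-like modifier, 2.40-fold higher (1.80 to 3.18), and Rtp4 3.31-fold higher (1.85 to 5.86). Isg15 was under 2-fold among granule-poor cells, with a ratio of 1.57 (1.16 to 2.10), and its log2 ratio was 0.73 without members with other-lineage markers. The summed log2 ratio was 1.39 (1.21 to 1.56), and 1.27 (1.06 to 1.47) within granule-poor cells. In granule-rich cells the list stood at 944 CPM in Ctrl and 938 CPM in dKO, and at 1006 and 1450 CPM without the deepest member of each library.

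**Figure D5:**
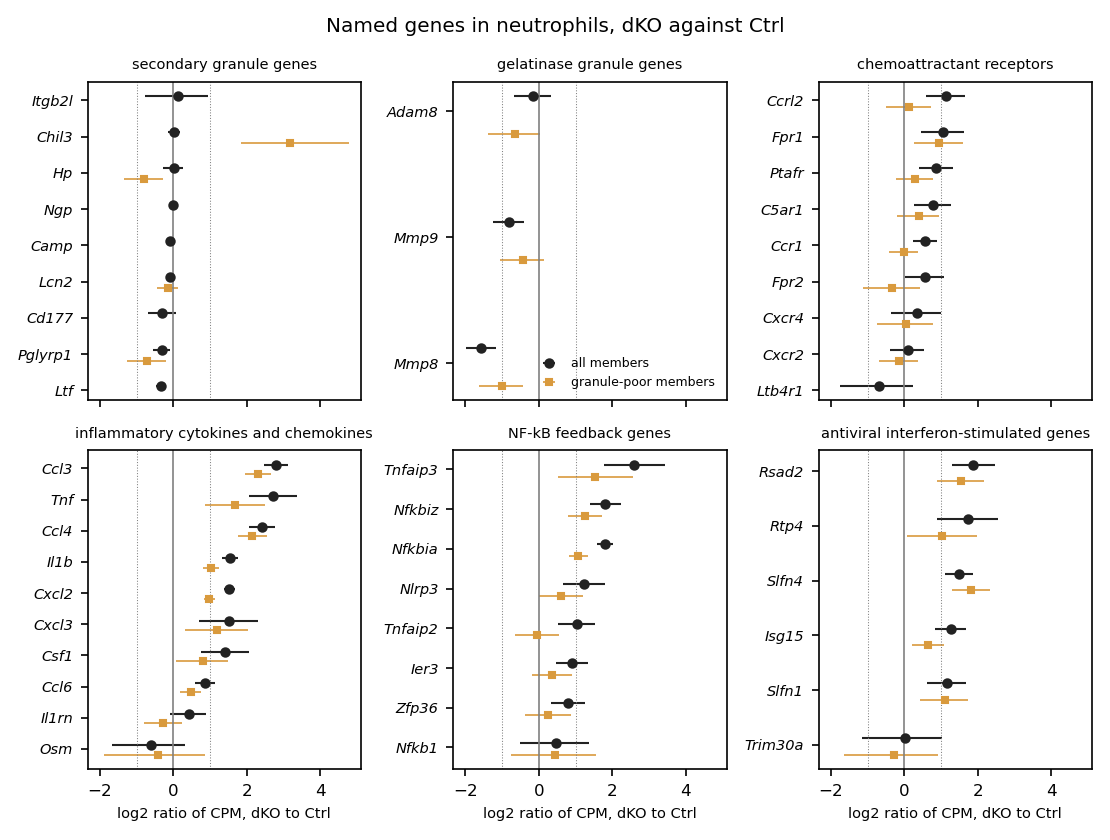
log2 ratio of CPM in dKO against Ctrl neutrophils (horizontal axis) for genes with at least 50 UMIs in 6 lists. Black circles are all members and orange squares granule-poor members with at least 20 UMIs of the gene, bars are 95% counting intervals, and dotted lines mark 2-fold. Ccl3, Ccl4 and Nfkbia lie to the right of 1 in both sets, and secondary granule genes lie near 0 over all members.

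The same lists were compared with other cells of the libraries. For cytokines and chemokines, the log2 ratio of dKO to Ctrl was 0.89 in monocytes (0.84 to 0.94), 0.58 in macrophages (0.56 to 0.60) and 0.61 in FAPs (0.58 to 0.64). The value of 1.54 in neutrophils lay above all of these intervals, and the value of 1.05 in granule-poor neutrophils above them as well. For NF-kB feedback genes it was 0.59 in monocytes and 0.51 in macrophages. For antiviral genes the ratio in neutrophils was close to that of monocytes (1.38, 1.28 to 1.47) and macrophages (1.37, 1.34 to 1.39), and above that of FAPs (1.04, 1.01 to 1.07). Endothelial cells stood at -0.01 (-0.06 to 0.05) for the antiviral list. These are ratios between 1 library and 1 library in each class, and the differences between classes were not tested.

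Receptors for attractants were somewhat higher in dKO over all members. Of 9 genes with at least 50 UMIs, 2 were over 2-fold higher and 0 lower, with a median log2 ratio of 0.57. Fpr1, a receptor for bacterial and mitochondrial formyl peptides, was 2.07-fold higher (1.37 to 3.08) and Ccrl2, an atypical chemerin receptor, 2.18-fold higher (1.5 to 3.15). Cxcr2 had a ratio of 1.07 (0.77 to 1.46), and Cxcr4, the receptor that retains neutrophils in marrow, a ratio of 1.27 (0.78 to 1.98). Within granule-poor cells the list had a log2 ratio of 0.11 (-0.08 to 0.30), Ccrl2 a ratio of 1.09 (0.71 to 1.65) and Fpr1 a ratio of 1.92 (1.20 to 3.05). The log2 ratio of Fpr1 was 0.30 without members with other-lineage markers.

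The other receptor lists also lay near 0 within granule-poor cells. Fc and pattern recognition receptors had 1 of 12 genes over 2-fold higher, Tlr4 with a ratio of 3.20 (1.80 to 5.64), and 0 lower, with a median log2 ratio of 0.43. Cd14, the co-receptor for lipopolysaccharide, stood at 1474 CPM in Ctrl and 2175 CPM in dKO. Within granule-poor cells the list had a log2 ratio of 0.01 (-0.10 to 0.13). Cytokine and growth factor receptors had 0 of 7 genes past 2-fold, a median log2 ratio of 0.57 and a ratio of -0.01 on the log2 scale within granule-poor cells (-0.22 to 0.20). Csf3r, in this list, had a ratio of 1.49 (1.10 to 1.99) over all members.

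Pooled levels of secondary granule genes were alike in the libraries, but the dKO level came from few cells. Of 9 genes, 0 were past 2-fold in either direction, and the sum was 67747 CPM in Ctrl and 63881 CPM in dKO, a log2 ratio of -0.08 (-0.12 to -0.05). One dKO cell held 55.9% of the UMIs of the list, against 10.2% for the leading Ctrl cell. Without the deepest member of each library the log2 ratio was -0.82. Camp was detected in 41 of 101 Ctrl cells and 5 of 32 dKO cells, Ngp in 49 and 6, and Ltf in 38 and 5.

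Of 3 genes with at least 50 UMIs in the gelatinase granule list, 0 were over 2-fold higher in dKO and 1 lower, Mmp8, with a median log2 ratio of -0.81. Mmp8 was counted in this list and not among the secondary granule genes above, and its place between the granule types was not tested. S100a8 stood at 81801 CPM in Ctrl and 48499 CPM in dKO, a ratio of 0.593, and at a ratio of 0.558 (0.53 to 0.59) among granule-poor cells. S100a8, S100a9, Mmp9 and Retnlg were among the genes that chose the members, so their values only describe them. Mmp8, neutrophil collagenase, had 674 UMIs in 56 of 101 Ctrl cells and 55 UMIs in 15 of 32 dKO cells, with a ratio of 0.338 (0.25 to 0.44). Among granule-poor cells its ratio was 0.496 (0.32 to 0.74). Mmp9, gelatinase B, had a ratio of 0.57 (0.42 to 0.76), and Adam8, a membrane protease, a ratio of 0.891 (0.62 to 1.25). Retnlg stood at 13261 and 7678 CPM over all members, and at 12859 and 3991 CPM in granule-poor cells, where its ratio was 0.31 (0.27 to 0.35).

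Among the genes with the lowest ratios were Olfm4, Stfa1, Ifi30 and Fn1. Olfm4, which marks a subset of neutrophils, had 89 UMIs in 7 Ctrl cells and 0 UMIs in dKO. It was 7.17-fold lower in dKO when that 0 was set to a floor of 3 UMIs, with Ctrl held at its measured level. The interval of its dKO to Ctrl ratio, a wider bound, ran from 0 to 0.175. The direction turned when at least 1 rather than 2 of the further genes was asked for, with 168 CPM in Ctrl and 294 CPM in dKO. Stfa1, a cysteine protease inhibitor, had 75 UMIs in 4 Ctrl cells and 0 in dKO. It was 6.04-fold lower at the same floor, with an interval of its ratio from 0 to 0.209. Stfa1 has near-identical copies, between which reads may have been split. Ifi30, a lysosomal thiol reductase, had 65 UMIs in 14 Ctrl cells and 1 UMI in dKO, but stood at 175 and 159 CPM with no exclusion genes. Fn1, fibronectin, had 96 UMIs in 17 Ctrl cells and 3 UMIs in dKO, but stood at 181 and 128 CPM with at least 1 further gene. The log2 ratio of Fn1 was -2.95 from the summed UMIs and -1.29 as the mean of each cell's CPM. Ifi30 and Fn1 are genes of macrophages or stroma, and the summed macrophage markers were 285 and 115 CPM in the same cells, whose part in these ratios was not tested. At the other end stood Ccl3, Tnf, Tnfaip3, Ccl4 and Eif5b, a translation initiation factor with 26 and 29 UMIs and a ratio of 4.61 (2.62 to 8.16).

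Primary granule genes were rare. Only Prtn3, which encodes proteinase 3, had at least 50 UMIs, with 52 UMIs in 8 Ctrl cells and 1 UMI in dKO, and 69.2% of the Ctrl UMIs lay in 1 cell. Its Ctrl level of 112 CPM depended on the member rule. It became 973 CPM with at least 1 further gene and 40.4 CPM with at least 3, against 7.54 and 11.7 CPM in dKO. The NADPH oxidase subunits had 0 of 6 genes past 2-fold and a median log2 ratio of -0.11. Ncf1, the organising subunit of the oxidase, had a ratio of 1.73 (1.37 to 2.18), and 2.42 (1.64 to 3.56) among granule-poor cells, while Cybb had 1.03 (0.86 to 1.23). Enzymes of lipid mediators had 0 of 4 genes past 2-fold.

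Survival and death genes had 1 of 5 genes over 2-fold higher, Pim1, and 1 lower, Padi4. Bcl2l11, a gene of cell death, and Bcl2a1b stayed within 2-fold. In granule-poor cells Bcl2l11 stood at 440 CPM in Ctrl and 330 CPM in dKO, and Bcl2a1b at 612 and 566 CPM. Pim1, a kinase that supports survival, was 2.44-fold higher (1.87 to 3.19), and Mcl1, on which neutrophils depend to stay alive, was 1.81-fold higher (1.54 to 2.12). Among granule-poor cells these ratios were 1.90 (1.4 to 2.58) and 1.35 (1.11 to 1.64). Padi4, the enzyme that citrullinates histones before extracellular traps form, had 53 and 6 UMIs and a ratio of 0.468 (0.16 to 1.09), whose interval included 1.

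Transcription factors had 0 of 12 genes past 2-fold, with a median log2 ratio of 0.40. Mxd1, a Myc antagonist of terminal differentiation, had a ratio of 1.76 (1.47 to 2.09) and Klf2, a factor of quiescence, a ratio of 1.88 (1.48 to 2.37). Cebpb had a ratio of 1.16 (0.99 to 1.36), and 0.856 (0.71 to 1.03) among granule-poor cells. Adhesion molecules had 0 of 6 genes past 2-fold. Glycolysis genes had 0 of 11 past 2-fold, with a median log2 ratio of -0.36, and actin and motility genes had 1 of 14 over 2-fold higher, Tmsb10, of which 1 dKO cell held 76.3% of the UMIs and whose log2 ratio was -0.14 without the 9 cells under 2% S100a8 and S100a9. Stefins and protease inhibitors had 1 of 6 genes over 2-fold lower, Stfa1. Cell cycle genes had 1 of 6 over 2-fold lower, Stmn1, with 86 UMIs in Ctrl and 9 in dKO. Its log2 ratio was -1.21, but 0.76 with no exclusion genes and -0.036 without members with other-lineage markers.

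Of 9 genes that dissociation of tissue can induce, with at least 50 UMIs each, 0 were over 2-fold higher in dKO and 2 lower, Hspa1b and Egr1, with a median log2 ratio of -0.29. Hspa1b, a heat shock chaperone, stood at 1367 CPM in Ctrl and 462 CPM in dKO, but its log2 ratio was 0.36 with no exclusion genes. Egr1, an immediate early factor, stood at 238 and 107 CPM, but 1 cell held 57.7% of the Ctrl UMIs, and its log2 ratio was 0.13 without the 9 cells under 2% S100a8 and S100a9 and 0.14 with no exclusion genes. Fos had a ratio of 0.896 (0.65 to 1.21). Genes reported in neutrophils resident in tissue had 1 of 5 over 2-fold higher, Tgm2, and 1 lower, Ctsb, of which 1 Ctrl cell held 33.7%. The log2 ratio of Ctsb turned to 0.44 without members with other-lineage markers and 0.37 with no exclusion genes, and among granule-poor cells Tgm2 had a ratio of 1.64.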

How the data were processed

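The authors made droplet libraries (10x Chromium) of sorted live cells, 1 Ctrl and 1 dKO, each from pooled mice. They deposited raw UMI counts per gene and barcode, not normalized, for barcodes called as cells. The file headers name Cell Ranger 3.0.2, while the submitters' processing notes name Cell Ranger 7.0.0, mm10, Seurat 4.3.0 and Cufflinks. Counts covered 24984 gene symbols, of which 0 were mitochondrial, and 24549 (98.3%) matched the RefSeq table. A minimum of 500 genes, met by 4335 Ctrl and 3329 dKO cells, was not applied, since 8 Ctrl and 5 dKO neutrophils fell under it.

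Members were found by the rule stated in the report, comparison classes by marker UMIs: monocytes (75 and 71 cells), macrophages (855 and 642), FAPs (830 and 831) and endothelial cells (453 and 177). The members, gene lists (21 lists, 252 entries, 249 of them in the files) and alternatives were chosen with earlier results of these data known. UMIs were summed over members per library and given as CPM with exact Poisson intervals, ratios with exact conditional binomial intervals, shares with Clopper-Pearson intervals and differences of shares with Newcombe intervals. Genes were called past 2-fold at 50 or more UMIs over both libraries. Named genes were list members with at least 50 UMIs or at 0, the 5 highest and 5 lowest ratios where no cell held over 50% of the UMIs of the higher library, and the 20 most abundant genes. One gene that this rule names is not reported here. Genes outside this rule are Yy1, the motif matches and markers that chose or describe cells, such as Csf1r, Ly6c2 and Ptprc. Cxcl1 and Cxcl5 below were named after their values were seen. With 1 library per group no test was possible. The neutrophils held 466118 UMIs in Ctrl and 112662 in dKO. The code for ratios and shares was checked on simulated counts, which does not bear on the spread between mice. Alternatives changed the member rule, scaling, count minimum and members left out. Python 3.11.15, numpy 2.4.6, scipy 1.17.1 and pandas 2.3.3 were used.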

Additional observations from a re-analysis of the deposited data

How the results depend on the processing

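No paired analysis was possible because each group had 1 library. For secondary granule genes the log2 ratio of dKO to Ctrl was -0.18 and -0.13 with minima of 10 and 40 for S100a8 and S100a9, 0.047 with 1 and 0.30 with 3 further genes, -0.042 with 500 genes per cell, -0.66 with no exclusion genes, 0.22 without members with other-lineage markers, -0.20 with totals that leave out S100a8 and S100a9, -0.13 by the median ratio of genes, -0.62 as the mean of each cell's CPM, -0.82 without the leading or the deepest member and -0.032 without members under 2% S100a8 and S100a9. For cytokines and chemokines it was 1.65 with a minimum of 40, 1.89 with 3 further genes, 0.98 with no exclusion genes, 1.35 without other-lineage markers, 1.43 without S100a8 and S100a9 in the totals, 1.21 as the mean of each cell's CPM, 1.41 without the leading member, 1.76 without the deepest, 1.85 without members under 2% S100a8 and S100a9 and 1.05 in granule-poor members. For antiviral genes it was 1.59 with 1 further gene, 1.20 with 500 genes per cell, 1.75 as the mean of each cell's CPM and 1.64 without the deepest member. The 160 genes past 2-fold (83 higher, 77 lower) became 267 (184 and 83) with no exclusion genes, 72 (49 and 23) without other-lineage markers, 245 (99 and 146) as the mean of each cell's CPM, 605 (252 and 353) at 20 UMIs, 66 (37 and 29) at 100 UMIs and 86 (30 and 56) in granule-poor members. The difference in neutrophil share was -0.455 points without other-lineage markers and -2.58 points among cells with Ptprc.

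Of 37 single genes, 9 turned direction under some alternative, in 12 of 512 values, while 447 of the values were past 2-fold in the main direction and 14 genes were so under every alternative that gave a value. With no exclusion genes these were Ctsb (0.37), Cxcl3 (-0.57), Egr1 (0.14), Hspa1b (0.36) and Stmn1 (0.76). Others were Olfm4 with 1 further gene (0.80), Tmsb10 with 3 further genes (-0.21), Ctsb without other-lineage markers (0.44), Prtn3 (1.30) and Tnfaip2 (-0.038) in granule-poor members, and Egr1 (0.13) and Tmsb10 (-0.14) without members under 2% S100a8 and S100a9, all log2 ratios. The Prtn3 value rests on 1 UMI in the granule-poor cells of each library. The granule-poor, deepest-member and 2% alternatives were chosen after seeing the data. Why these values moved was not tested beyond the cells left out. The dKO values rest on 32 cells, of which 1 held 21.5% of the UMIs.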

Other observations

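Ligands that draw neutrophils through CXCR2 came mostly from other cells of the tissue. Cxcl1 was seen in 44.6% of Ctrl and 58.7% of dKO FAPs at 1000 UMIs per cell, against 7.22% and 13.3% of neutrophils. FAPs held 64.5% of all Cxcl1 UMIs in Ctrl and 71.1% in dKO. Cxcl5, another ligand of CXCR2, was seen in 8.20% of Ctrl and 12.9% of dKO FAPs and in 0 of 97 and 0 of 30 neutrophils, and FAPs held 77.3% and 82.6% of its UMIs. Cxcl2 was seen in 52.6% and 80.0% of neutrophils, in 41.3% and 67.1% of monocytes and in 35.0% and 41.8% of macrophages. The FAP values of Cxcl1 and Cxcl5 were higher in dKO, where the neutrophil share was lower, and the relation between them was not tested.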
